A study of Mus musculus with 12 samples.

Results

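Genes of 3 linked protease systems were followed, namely 3 sheddases of the ADAM family (Adam8, Adam10 and Adam17), 4 matrix metalloproteinases (Mmp9, Mmp12, Mmp13 and Mmp14), the metalloproteinase inhibitor Timp2, and urokinase with its receptor (Plau and Plaur). These 10 members of the 55357 gene identifiers in each count table were chosen by name, and the choice was made knowing that Adam8 and Plaur were higher in esculetin-treated cells. Fold changes and counts of members in the cells are therefore given as a description, with no p-value, and tests of the members are given for the liver alone. RNA-seq was performed on 12 libraries in 4 groups of 3, 2 groups from liver and 2 from RAW264.7 cells, and each tissue was compared between esculetin, a dihydroxylated coumarin made by plants, and its vehicle. The liver samples came from wild-type male C57BL6/J mice aged 8 to 9 weeks, and the study states that each sample held the livers of a pair of mice. All of these mice had 4 days of a control diet (10% of energy from fat) followed by 3 days of a high-fat diet (60%), and throughout these 7 days they were gavaged with 2.5% Tween-80 (control) or with esculetin at 90 mg/kg per day. RAW264.7 is a transformed mouse macrophage line, and its libraries came from cultures and not from primary cells. All RAW264.7 cultures carried 25 µg/mL of DIL-oxLDL, an oxidized low-density lipoprotein with a fluorescent dye, for 24 hours, with DMSO (control) or with 40 µg/mL esculetin. Cells without oxLDL and mice without the high-fat diet were not analysed here, so each comparison concerns esculetin on top of a lipid load.

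ADAM sheddases are membrane-anchored metalloproteases that cut the outer part of other membrane proteins, and with it release cytokines such as TNF and growth factors. Matrix metalloproteinases degrade collagen, elastin and gelatin, and TIMP proteins block their active site. Urokinase bound to its receptor turns plasminogen into plasmin at the cell surface, and plasmin degrades fibrin and activates several pro-metalloproteinases. Macrophages are a known source of these enzymes, whereas hepatocytes secrete plasminogen into the blood.

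Libraries held 14659876 to 20346460 counts in the liver and 13752842 to 20001959 in the cells. Levels are given as CPM, the counts in each 1e6 counts of tested genes after scaling by the trimmed mean of M-values (TMM), and errors are SDs over 3 libraries. A count of 3, taken as the floor of detection, was worth 0.146 to 0.220 CPM in a cell library and 0.148 to 0.195 CPM in a liver library. Liver control replicate 1 stood apart, with a mean Pearson correlation of log2 CPM with the other liver libraries of 0.971, against 0.980 to 0.983 for the other 5, and a TMM factor of 1.11 against 0.963 to 0.997. The log2 fold changes of the tested members in the liver are given with and without it. In the cells, esculetin replicate 3 stood apart, with a mean correlation with the other cell libraries of 0.950, against 0.957 to 0.959 for the other 5. Its TMM factor was 0.955, against 0.982 to 1.03. All 7 macrophage markers were over the floor in the cells, and of 5 hepatocyte markers none was, with Ttr, Apoa1 and Cps1 at 0 in all 6 libraries. All 5 hepatocyte and all 5 Kupffer cell markers were over the floor in the liver.

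On genome build GRCm39, the members lie on 6 chromosomes, and Mmp12 and Mmp13 are neighbours in a cluster of 10 metalloproteinase genes on chromosome 9. Adam8 spans chr7:139558845-139572475 on the minus strand, Plaur spans chr7:24161875-24175394 on the plus strand, Plau spans chr14:20886722-20893453 and Mmp14 spans chr14:54668878-54682821, both on the plus strand. Mmp13 spans chr9:7272514-7283331, Mmp12 chr9:7344381-7369499 and Adam10 chr9:70586221-70687511, all on the plus strand. Mmp9 spans chr2:164780439-164797771 on the plus strand, Adam17 chr12:21373510-21423672 on the minus strand and Timp2 chr11:118191887-118246566 on the minus strand. The tables list genes by Ensembl identifier, and the sheddases are ENSMUSG00000025473 (Adam8), ENSMUSG00000054693 (Adam10) and ENSMUSG00000052593 (Adam17). The metalloproteinases are ENSMUSG00000017737 (Mmp9), ENSMUSG00000049723 (Mmp12), ENSMUSG00000050578 (Mmp13) and ENSMUSG00000000957 (Mmp14), and the inhibitor and the urokinase genes are ENSMUSG00000017466 (Timp2), ENSMUSG00000021822 (Plau) and ENSMUSG00000046223 (Plaur).

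The 250 bases before the start of the canonical transcript were searched on both strands in 21770 protein-coding genes for 4 motifs, chosen when the fold changes were known. AP-1, the Fos and Jun site TGANTCA, matched in 4 of the 10 members (Mmp9, Mmp12, Mmp13 and Plaur) and in 6.17% of all windows. C/EBP, written TTGCNNAA for the bZIP family that the study centres on, matched in 3 members (Adam8, Mmp9 and Plaur) and in 9.34% of all windows. ETS, written AGGAAG, matched in 6 members (Adam10, Adam17, Mmp13, Mmp14, Timp2 and Plaur) and in 28.9% of all windows. NF-kB, written as GGGNN directly followed by TTTCC, matched in 0 members and in 1.465% of all windows. The AP-1 and C/EBP matches of Plaur and Mmp9 did not share bases. These matches describe letters only, and binding was not measured in these libraries.

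The windows of the 4 members with an AP-1 match are shown because they place that match within 69 bases of the start site in all of them, and the Adam8 window is shown because Adam8 had the highest fitted fold among the abundant members in cells. They come from GRCm39, at chr2:164789889-164790138 (plus strand), chr9:7347124-7347373 (plus strand), chr9:7272264-7272513 (plus strand), chr7:24161625-24161874 (plus strand) and chr7:139572476-139572725 (minus strand), and hold no base of an annotated exon. Each is written 5′ to 3′ on the strand of its gene and ends on the base before the start. Capitals mark matches to AP-1, C/EBP or ETS on either strand.
Mmp9: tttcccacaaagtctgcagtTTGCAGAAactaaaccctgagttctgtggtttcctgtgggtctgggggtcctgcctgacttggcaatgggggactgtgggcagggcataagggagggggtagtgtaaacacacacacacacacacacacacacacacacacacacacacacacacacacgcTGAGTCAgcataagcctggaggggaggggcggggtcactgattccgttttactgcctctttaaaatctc
Mmp12: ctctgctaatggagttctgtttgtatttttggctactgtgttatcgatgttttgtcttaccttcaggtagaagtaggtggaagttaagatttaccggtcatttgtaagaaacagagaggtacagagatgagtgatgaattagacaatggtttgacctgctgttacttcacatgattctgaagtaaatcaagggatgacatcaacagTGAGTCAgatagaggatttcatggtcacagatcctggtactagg
Mmp13: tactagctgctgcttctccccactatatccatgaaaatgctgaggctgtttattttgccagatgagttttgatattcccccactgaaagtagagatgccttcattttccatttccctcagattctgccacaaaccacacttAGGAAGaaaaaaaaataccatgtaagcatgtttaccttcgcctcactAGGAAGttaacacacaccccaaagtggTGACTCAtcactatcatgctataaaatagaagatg
Plaur: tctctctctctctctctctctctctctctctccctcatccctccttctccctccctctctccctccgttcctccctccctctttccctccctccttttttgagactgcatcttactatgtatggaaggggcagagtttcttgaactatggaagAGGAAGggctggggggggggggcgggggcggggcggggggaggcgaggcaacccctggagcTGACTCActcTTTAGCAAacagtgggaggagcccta
Adam8: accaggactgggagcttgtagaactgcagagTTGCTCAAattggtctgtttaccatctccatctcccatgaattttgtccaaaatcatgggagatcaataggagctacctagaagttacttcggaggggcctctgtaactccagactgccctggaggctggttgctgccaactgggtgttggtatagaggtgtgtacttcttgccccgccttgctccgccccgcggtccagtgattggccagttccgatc
In these windows the AP-1 match covered bases 69 to 63 before the start in Mmp9, 44 to 38 in Mmp12, 35 to 29 in Mmp13 and 36 to 30 in Plaur. The C/EBP match lay 230 to 223 bases before the start in Mmp9, 219 to 212 in Adam8 and 26 to 19 in Plaur, where it was read on the opposite strand.

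The first comparison set esculetin against DMSO in oxLDL-treated RAW264.7 cells. Adam8, Adam17, Mmp9, Mmp12, Plau and Plaur were higher with esculetin, Adam10 differed little, and Mmp13, Mmp14 and Timp2 were too low to be tested. By edgeR's quasi-likelihood test, 6 of the 7 tested members were called (Benjamini-Hochberg adjusted p-value under 0.05), all of them higher, beside 57.7% of all 13277 tested genes called and 28.7% called higher. The study's criterion (limma-voom, unadjusted p-value under 0.05, more than 1.5-fold in either direction) took the same 6 members, beside 38.0% of all tested genes. The same 6 members had no overlap between the groups, beside 31.0% of all tested genes that were higher without overlap. Mmp9 and Mmp12 had at most 3 counts in each control library and passed the filter on low counts only through the esculetin libraries. Their call, direction and lack of overlap were thus largely set by being tested. For this reason, and since the choice of members used this contrast, nothing is read from these counts.

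**Figure D1:**
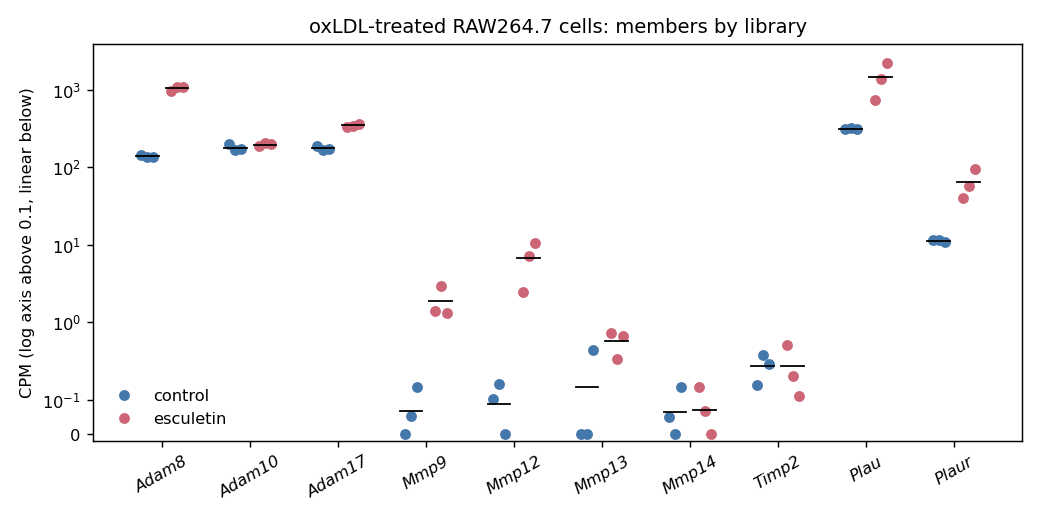
Level of the 10 members in CPM (log axis above 0.1, linear below) in the 3 control and 3 esculetin libraries of oxLDL-treated RAW264.7 cells, with a point per library and a bar at each group mean. Adam8 sits between 134 and 145 CPM in control and between 946 and 1085 CPM with esculetin, whereas the points of Adam10 overlap.

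Among the sheddases, Adam8, which leukocytes and osteoclasts use for shedding and migration, was at 145, 136 and 134 CPM in the control libraries and 946, 1080 and 1085 CPM in the esculetin libraries. The groups lay far apart and each was tight, with means of 138 ± 6.04 CPM and 1037 ± 79.1 CPM (SD, n = 3). This made 7.49-fold, or 2.91 on the log2 scale (SE 0.09). Adam17, the enzyme that releases TNF from the membrane, was at 190, 165 and 169 CPM in control and 332, 343 and 361 CPM with esculetin. Its groups did not overlap either, and the log2 fold change was 0.98 (SE 0.09). Adam10, the main sheddase of Notch receptors, was at 199, 166 and 170 CPM in control and 185, 206 and 197 CPM with esculetin. These groups overlapped, with means of 178 ± 18.2 CPM and 196 ± 10.1 CPM and a log2 fold change of 0.14 (SE 0.09). An antisense neighbour shares 341 exon bases with Adam17 (Iah1, at most 516 counts in a cell library) and another shares 46 with Adam8 (Gm16201, at most 330 counts). The counting was not stated to use strand, so reads of these pairs in the shared stretch cannot be told apart. Cep295nl, on the same strand as Timp2, shares 332 exon bases with it and had at most 2 counts in a cell library and 1 in a liver library. Antisense noncoding genes share 388 exon bases with Plau (Gm63115) and 219 with Mmp14 (Gm62879), and neither was among the counted genes.

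In the urokinase system, Plau was already abundant in control cells, at 307, 322 and 312 CPM, and reached 726, 1353 and 2231 CPM in the esculetin libraries. Plau encodes urokinase itself. The groups did not overlap, with means of 313 ± 7.50 CPM and 1437 ± 756 CPM and a log2 fold change of 2.20 (SE 0.30). The spread was on the esculetin side, where the highest library was 3.07 times the lowest, against 1.05 times in control. Plaur, the membrane-anchored receptor that holds urokinase at the cell surface, was at 11.6, 11.5 and 10.7 CPM in control and 39.7, 56.4 and 96.0 CPM with esculetin. It showed the same kind of spread, 2.42 times between esculetin libraries against 1.08 times between control libraries. The means were 11.3 ± 0.481 CPM and 64.0 ± 28.9 CPM, with a log2 fold change of 2.51 (SE 0.26).

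The matrix metalloproteinases were near the floor in control cells. Mmp12, the macrophage elastase, had 2, 3 and 0 counts in control and 34, 105 and 187 counts with esculetin. Every control library was at or under 3 counts, so only a bound can be given, and the esculetin mean of 6.69 ± 3.99 CPM was at least 43.4-fold higher than the level of 3 counts in each control library. Mmp9, a gelatinase, had 0, 1 and 3 counts in control and 19, 43 and 24 counts with esculetin, and its mean of 1.89 ± 0.905 CPM was at least 12.2-fold higher by the same bound. Both were present in the esculetin libraries at levels far below those of Adam8 or Plau. Mmp13, a collagenase, had 0, 0 and 9 counts in control and 10, 5 and 12 with esculetin, and its groups overlapped. Mmp14, the membrane-anchored activator of pro-MMP2, had 1, 0 and 3 counts in control and 2, 1 and 0 with esculetin, at or under the floor in all 6 libraries. Timp2, its inhibitor and partner in that activation, had 3, 7 and 6 counts in control and 7, 3 and 2 with esculetin. No difference of Mmp14 or Timp2 was detectable at this depth.

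Of the 10 genes of the metalloproteinase cluster on chromosome 9, only Mmp13, Mmp12 and Mmp3 exceeded 3 counts in any cell library. Mmp3, which encodes stromelysin, did so in 1 library, with 6 counts in esculetin replicate 3 and 0 in the other 5. Mmp1b overlaps Mmp12 on the other strand by 157 exon bases and was at 0 in all 12 libraries.

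Within the esculetin cells, replicate 3 was the highest and replicate 1 the lowest library for Adam8, Adam17, Mmp12, Plau and Plaur, as for 28.7% of all tested genes. The highest library was 4.19 times the lowest for Mmp12, but 1.15 times for Adam8 and 1.09 times for Adam17. Without replicate 3, which stood apart, the log2 fold change was 1.73 for Plau and 2.09 for Plaur, beside 2.20 and 2.51 with it. It was 2.87 for Adam8, 0.95 for Adam17 and 0.13 for Adam10, beside 2.91, 0.98 and 0.14. No value is given for Mmp12 or Mmp9, whose control libraries were at or under the floor. Mmp9 had another order, with replicate 2 the highest at 2.93 CPM and replicate 3 the lowest at 1.34 CPM. The total counts of these libraries were 13752842, 14954496 and 18801094 in replicates 1, 2 and 3, and their part in the order of the CPM values was not tested.

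The summed level of the 7 macrophage markers was 2220 to 2381 CPM in control cells and 4927 to 7429 CPM with esculetin. By edgeR 5 of the 7 were called higher, beside 28.7% of all tested genes. Lyz2, the macrophage lysozyme, made most of the difference, at 638 ± 41.8 CPM in control and 3496 ± 1090 CPM with esculetin. Of 5 osteoclast markers, a fate RAW264.7 cells can take, 4 were called higher (Acp5, Ctsk, Ocstamp and Dcstamp), beside the same 28.7%. The sum of the list was 35.1 to 39.9 CPM in control and 160 to 249 CPM with esculetin. Calcr, the calcitonin receptor that defines the late osteoclast, was at 0 in all 6 libraries. The sum of 6 neutrophil and monocyte markers was 0.108 to 0.292 CPM in control and 2.42 to 4.09 CPM with esculetin. Ccr2 made most of it, at 2.34, 3.68 and 2.23 CPM in the esculetin libraries. S100a9 and Ly6c2 were at or under the floor, S100a8 had at most 6 counts, and Retnlg and Ly6g were at 0 in all 6 libraries. The macrophage and osteoclast sums rose from esculetin replicate 1 to replicate 3, as did Adam8, Adam17, Mmp12, Plau and Plaur. The neutrophil and monocyte sum was highest in replicate 2. The part of these lists in the members' levels was not tested.

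Levels per kilobase of exon can be compared between genes. In control cells Plau was first, at 122 ± 2.92 CPM per kb, followed by Adam10 at 32.0 ± 3.28, Adam8 at 29.8 ± 1.30, Adam17 at 20.5 ± 1.57 and Plaur at 2.82 ± 0.120 CPM per kb. Adam10 and Adam8 overlapped in this order, and the other 5 members were at or under 0.0615 CPM per kb and overlapped in sequence. In esculetin cells Plau was at 560 ± 295 CPM per kb and Adam8, now the second, at 224 ± 17.1 CPM per kb. Adam17 at 40.4 ± 1.73 CPM per kb lay above Adam10 at 35.2 ± 1.82 CPM per kb without overlap. Mmp12 and Mmp9 stayed low, at 0.925 ± 0.551 and 0.509 ± 0.244 CPM per kb, and overlapped.

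**Figure D2:**
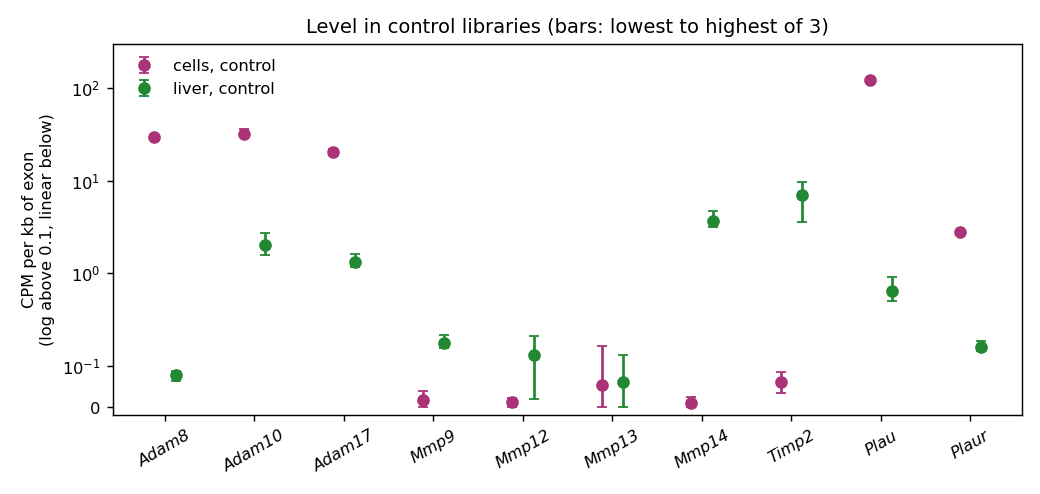
Mean level of the 10 members in CPM per kb of exon (log axis above 0.1, linear below) in control cells and control liver, with bars from the lowest to the highest of 3 libraries. Plau leads in cells at 122 CPM per kb and Timp2 in liver at 7.05 CPM per kb, and the tables were scaled separately.

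The second comparison set esculetin against vehicle in the liver. The stated choice of members named no liver value, though earlier results of these data were known when it was made. No member was called. Of the 10 members 6 were tested (Adam10, Adam17, Mmp14, Timp2, Plau and Plaur), and the lowest edgeR adjusted p-value was 0.445, for Mmp14, beside 0.0859% of all 12813 tested genes called. Mmp14 alone, 1 of 6, had an unadjusted p-value under 0.05, beside 8.37% of all tested genes, and DESeq2 called none. By the study's criterion Mmp14 was taken as well, beside 3.89% of all tested genes. The fitted log2 fold changes of all 6 were below 0, from -0.60 to -0.01, as for 53.5% of all tested genes, and 2 members (Adam17 and Mmp14) were lower without overlap, beside 7.95% of all tested genes.

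**Figure D3:**
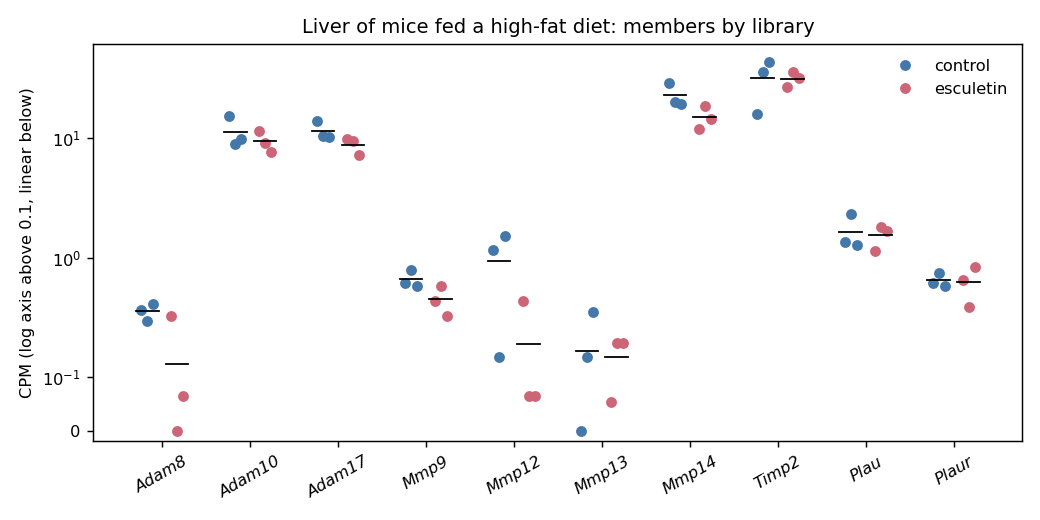
Level of the 10 members in CPM (log axis above 0.1, linear below) in the 3 control and 3 esculetin liver libraries, with a point per library and a bar at each group mean. Only Mmp14 and Adam17 show no overlap between groups, and the control replicate at 16.0 CPM lies below the rest for Timp2.

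Mmp14 was at 28.7, 20.0 and 19.4 CPM in the control livers and 11.8, 18.6 and 14.5 CPM in the esculetin livers. The highest esculetin library came close to the lowest control library, and the means were 22.7 ± 5.22 CPM and 15.0 ± 3.43 CPM (SD, n = 3), a difference of -0.60 on the log2 scale (SE 0.20). Control replicate 1, the library that stood apart, was the highest, and without it the log2 fold change was -0.40 (edgeR adjusted p-value 0.524). Without the filter on low counts edgeR called Mmp14 (log2 fold change -0.61, adjusted p-value 0.0231), as it did 339 of all 22343 genes then tested. Timp2, the protein partner of Mmp14, was at 16.0, 35.6 and 42.8 CPM in control and 26.8, 35.3 and 32.0 CPM with esculetin. Its groups overlapped, with a log2 fold change of -0.01 (SE 0.27, adjusted p-value 0.995 by edgeR). The overlap at the low end was control replicate 1, at 16.0 CPM, and without it both remaining controls lay above all 3 esculetin livers. The fitted change was then -0.32, with an unadjusted p-value of 0.0403 and an adjusted p-value of 0.519 by edgeR.

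Adam17 was at 13.9, 10.4 and 10.1 CPM in control livers and 9.75, 9.48 and 7.25 CPM with esculetin. The gap between the groups was small against the spread within them, and the log2 fold change of -0.37 (SE 0.19) had an edgeR adjusted p-value of 0.636. It was -0.21 without control replicate 1, the highest library (adjusted p-value 0.774 by edgeR). Here the antisense neighbour Iah1 reached 2591 counts in a library against at most 226 for Adam17. How reads in the shared exon bases were assigned was not stated, so whether Adam17 gained or lost counts there is uncertain. Adam10 was at 15.3, 8.88 and 9.79 CPM in control and 11.5, 9.03 and 7.64 CPM with esculetin. Its groups overlapped, and the fitted change was -0.26 on the log2 scale (SE 0.23), with an adjusted p-value of 0.777 by edgeR. It was 0.02 when control replicate 1 was left out.

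Plau had 22, 47 and 22 counts in control livers and 21, 28 and 26 with esculetin, and its fitted change on the log2 scale was -0.11 (SE 0.36), with an adjusted p-value of 0.952 by edgeR. Plaur had 10, 15 and 10 counts in control and 12, 6 and 13 with esculetin, and its fitted change was -0.04 (SE 0.45), with an adjusted p-value of 0.988 by edgeR. Without control replicate 1 these changes were -0.24 and -0.07. The groups of both overlapped, and at these counts the standard errors span several times the fitted change. The other 4 members did not pass the filter on low counts. Adam8 had 6, 6 and 7 counts in control livers and 6, 0 and 1 with esculetin. Mmp12 had 19, 3 and 26 counts in control and 8, 1 and 1 with esculetin, Mmp9 had 10, 16 and 10 against 8, 9 and 5, and Mmp13 had 0, 3 and 6 against 1, 3 and 3. All 4 overlapped between the groups, Adam8 at 6 counts only, and no difference was detectable at this depth.

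Whole liver is a mixture, and fewer cells of a type and less RNA per cell cannot be told apart in it. The summed level of 5 Kupffer cell markers was 281 to 328 CPM in control livers and 258 to 295 CPM with esculetin, and that of 7 stellate cell and fibroblast markers 201 to 234 CPM and 186 to 205 CPM. The 7 macrophage markers summed to 151 to 191 CPM in control livers and 156 to 166 CPM with esculetin. All of these sums overlapped between the groups, and all of their markers were over the floor. Adgre1, Cd68, Csf1r, Marco and Pdgfrb were lower without overlap, beside 7.95% of all tested genes, and none was called. The other markers of these lists overlapped. The part of these cells in the levels of Mmp14 and Adam17 was not tested. The 6 neutrophil and monocyte markers summed to 3.01 to 3.31 CPM in control and 1.36 to 2.59 CPM with esculetin without overlap, none was called, and Ly6g, which defines neutrophils, was at 0 in all 6 libraries. The part of these cells in the levels of Adam8, Mmp9 and Mmp12 was not tested.

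In control liver the order per kilobase differed from that in the cells, in a table scaled separately. Timp2 was first, at 7.05 ± 3.11 CPM per kb, and overlapped with Mmp14 at 3.69 ± 0.847 CPM per kb. Adam10 followed at 2.03 ± 0.623, overlapping with Adam17 at 1.34 ± 0.244, and Plau lay at 0.643 ± 0.226 CPM per kb. Mmp9, Plaur, Mmp12, Adam8 and Mmp13 came last, at 0.179 CPM per kb or less, each overlapping with the next. With esculetin, Timp2 was at 7.03 ± 0.960 CPM per kb and no longer overlapped with Mmp14 at 2.43 ± 0.556 CPM per kb.

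**Figure D4:**
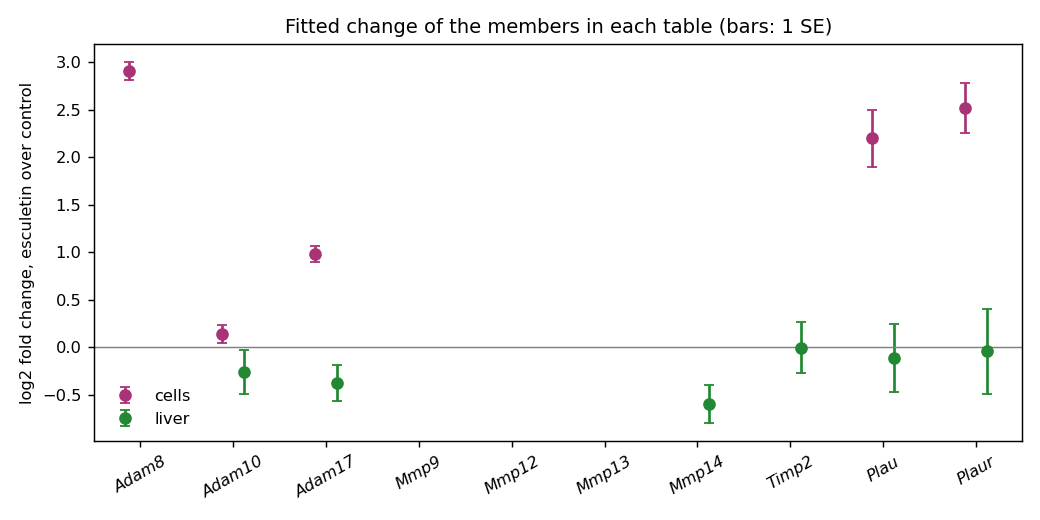
Fitted log2 fold change, esculetin over control, of the members tested in each table, with bars of 1 SE. Mmp9 and Mmp12 are left out because their control cells were at the floor. Adam8 (2.91), Plaur (2.51) and Plau (2.20) lie well above 0 in cells, and the liver values run from -0.60 to -0.01.

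Side by side, Adam17 had a log2 fold change of 0.98 in the cells and -0.37 in the liver, Plau 2.20 and -0.11, and Plaur 2.51 and -0.04. The dose, the time, the vehicle and the lipid load differed between the tables, and the difference between the effects was not tested.

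The members act with 108 other genes that were listed by role. In the cells 50 of these were tested and 28 were called, 21 higher and 7 lower, which makes 56.0% beside the 57.7% of all tested genes called. Of all tested genes, 28.7% were called higher and 29.0% lower. The median log2 fold change of the 50 was 0.20, beside -0.01 for all tested genes. A further 25 of the 108 were at 0 in all 6 cell libraries. The share called is near that of all tested genes, and no result is read from it.

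**Figure D5:**
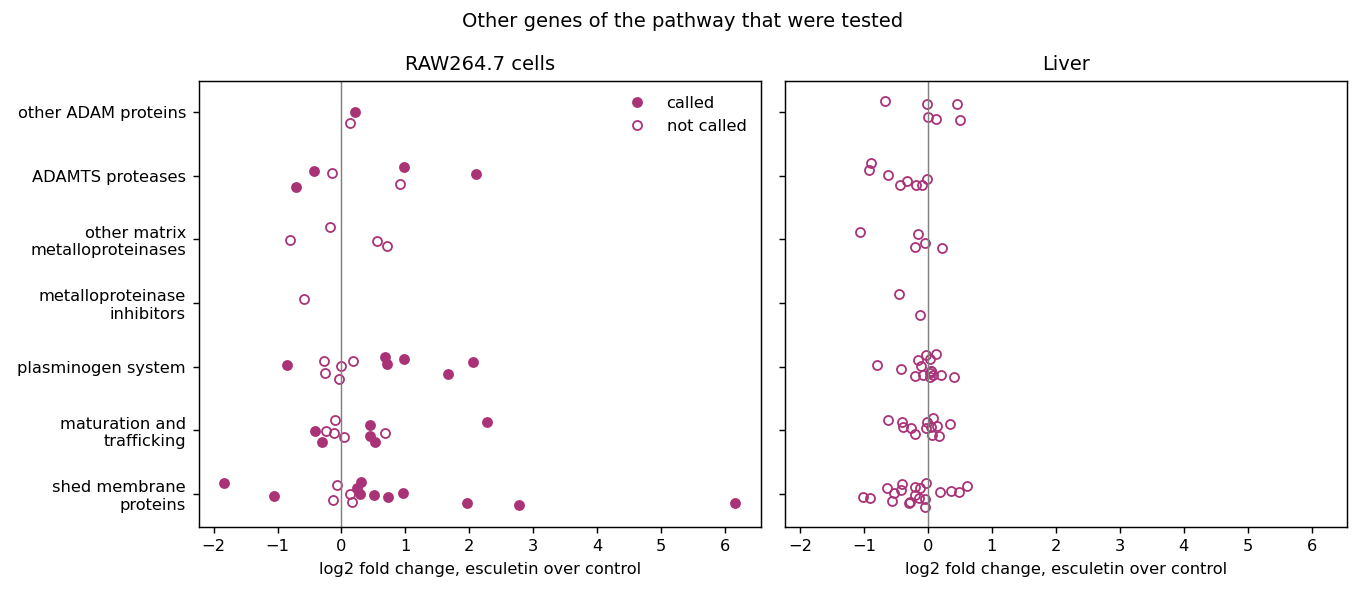
Fitted log2 fold change, esculetin over control, of the tested genes of 7 lists that act with the members, in cells and in liver, with a filled point for a gene called at an adjusted p-value under 0.05 and an open point otherwise. Called genes lie on both sides of 0 in cells, and 0 of the 70 liver genes are filled.

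Of the plasminogen system, 11 of 18 genes were tested in the cells, with 5 called higher and 1 lower. Plat, the other plasminogen activator, rose from 5.16 ± 0.699 CPM to 16.4 ± 4.34 CPM (log2 fold change 1.67, SE 0.21). The integrin subunits Itgam and Itgb2, which pair to a receptor that binds the urokinase receptor, rose by log2 fold changes of 0.71 (SE 0.12) and 0.98 (SE 0.11). Lrp1, an endocytic receptor that clears protease complexes, rose by 0.67 (SE 0.09). Serpinf2, the inhibitor of plasmin, was low and fell from 11.0 ± 1.12 CPM to 6.11 ± 1.09 CPM (-0.85, SE 0.18). The plasminogen-binding proteins Plgrkt, Anxa2, S100a10 and Eno1 and the collagen receptor Mrc2 were not called, with log2 fold changes from -0.27 to 0.19.

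Of 5 metalloproteinase inhibitors only Timp1 was tested in the cells, at 4.78 ± 1.33 CPM in control and 3.21 ± 0.618 CPM with esculetin, and it was not called (log2 fold change -0.58, edgeR adjusted p-value 0.0739). The remaining metalloproteinases had 4 of 18 tested and none called by edgeR. None of these 4 had an unadjusted p-value under 0.05, beside 62.3% of all tested genes. Of 10 further ADAM genes 2 were tested and 1 was called higher. The ADAMTS proteases, which are secreted, had 6 of 19 tested, 2 called higher and 2 lower. Adamts13, which cleaves von Willebrand factor, rose by a log2 fold change of 2.10 (SE 0.22), and Adamts6 and Adamts10 fell by 0.70 (SE 0.20) and 0.43 (SE 0.14) on the log2 scale.

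Genes for the maturation and trafficking of these proteases had 11 of 14 tested, 4 called higher and 2 lower. The tetraspanin Tspan14, which helps Adam10 leave the endoplasmic reticulum, fell by 0.41 (SE 0.12) on the log2 scale, and Bsg, an inducer of metalloproteinases, fell by 0.30 (SE 0.09). Membrane proteins that ADAM enzymes shed had 15 of 24 tested, 9 called higher and 2 lower. Tnf, the classical substrate of Adam17, rose from 16.4 ± 0.224 CPM to 112 ± 18.6 CPM (log2 fold change 2.77, SE 0.12). Hbegf, a growth factor held on the membrane until it is cut, had 6, 7 and 0 counts in control and 134, 278 and 367 counts with esculetin. Cd44, the hyaluronan receptor, rose by 1.96 (SE 0.16) and Csf1r, the receptor for macrophage colony-stimulating factor, by 0.96 (SE 0.10). Axl, a receptor of apoptotic cell uptake, fell from 5.63 ± 0.344 CPM to 1.57 ± 0.151 CPM (-1.84, SE 0.22). Csf1r and Itgam also stand in the macrophage marker list.

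In the liver 70 of the 108 genes were tested and edgeR called 0, beside 0.0859% of all tested genes. An unadjusted p-value under 0.05 was found for 16, beside 8.37% of all tested genes, and DESeq2 called 1 (Icam1), beside 98 of all 12813. The median log2 fold change was -0.10 beside -0.02 for all tested genes, and 47 of the 70 (67.1%) were below 0, beside 53.5% of all tested genes. Of the 70, 16 were lower and 3 higher without overlap, beside 7.95% and 6.52% of all tested genes. The smallest p-values were those of Icam1, Adamts10, Notch2 and Cpb2. Icam1, an adhesion protein, was at 7.83 ± 0.896 CPM in control livers and 4.17 ± 0.408 CPM with esculetin (log2 fold change -0.91, edgeR adjusted p-value 0.165). Adamts10 had a log2 fold change of -0.88 (edgeR adjusted p-value 0.319), and Notch2, a receptor that Adam10 cleaves, one of -0.57 (edgeR adjusted p-value 0.364). Cpb2, the carboxypeptidase that slows fibrin lysis, had one of 0.40 (edgeR adjusted p-value 0.393). By edgeR with the filter on low counts, none of the 7 lists had a called gene in the liver.

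The proteins of the plasminogen system that the liver secretes were abundant and close between the groups. Plg, plasminogen, was at 1500 ± 202 CPM in control livers and 1529 ± 38.6 CPM with esculetin. Serpinf2 was at 671 ± 91.3 CPM and 695 ± 43.9 CPM, and Vtn, the vitronectin to which the urokinase receptor binds, at 2961 ± 295 CPM and 3062 ± 134 CPM. Their log2 fold changes were 0.03 (SE 0.14), 0.05 (SE 0.13) and 0.05 (SE 0.14), none of them called. The inhibitors Timp3 and Reck were at 6.51 ± 0.135 and 3.55 ± 0.974 CPM in control livers, with log2 fold changes of -0.12 (SE 0.18) and -0.45 (SE 0.28).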

How the data were processed

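Per the file headers and the study's methods, the authors deposited raw counts per gene in 2 tables (liver and cells), from paired-end libraries aligned to GRCm39 with HISAT2 2.2.1 and counted with featureCounts. Strandedness, the handling of multiply mapped reads and the annotation release were not given in the sources used here. Groups came from the sample titles.

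The tables were fitted separately with edgeR 4.0.16 under R 4.3.3 (filterByExpr, TMM, quasi-likelihood test, treatment as the only term), two-sided, with Benjamini-Hochberg adjustment over all tested genes. The SE of a log2 fold change is its absolute value divided by the square root of F. Symbols, exons and positions came from GENCODE release 39 for GRCm39, in which 54749 of the 55357 identifiers and all 10 members matched. The labels do not say whether replicates were separate cultures, so p-values measure the spread between these samples, and errors and bounds at the floor cover no more than that and counting error. The script was tested on simulated data with known changes.

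The members, the 108 other genes and the marker lists were chosen with earlier results of these data known. Of the 108, each table allowed naming of the 8 called genes per direction with the smallest p-values and a mean of at least 1 CPM, of 4 in the liver, where none was called, and of any tested metalloproteinase inhibitor or plasminogen system gene. A gene of these lists that the rule allowed is counted but not reported here by name. Mmp3 and the neighbours that share exon bases with a member were named outside this rule, after their values were seen. Alternatives were RLE, upper quartile and library size scaling, no filter, DESeq2 1.42.0, limma-voom (limma 3.58.1), a replicate block and leaving out each library. The study's criterion (p-value under 0.05 and fold change over 1.5) was a further alternative, run here on unadjusted limma-voom p-values. Summaries used pandas 2.3.3 with numpy 2.4.6, and figures matplotlib 3.10.9, all in Python 3.11.15.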

Additional observations from a re-analysis of the deposited data

Results flagged for a closer look

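The members and those of the 108 other genes selected for naming by their p-values were searched for opposite directions. In 3 genes every esculetin library lay above every control library in the cells and below every control library in the liver. Of all tested genes, 31.0% were higher without overlap in the cells and 7.95% lower without overlap in the liver. The share of all genes with both was not counted, so nothing is read from the 3. Adam17 had a log2 fold change of 0.98 in cells and -0.37 in liver. Its liver counts may have gained or lost reads in the exon bases shared with its antisense neighbour Iah1. Csf1r had 0.96 in cells and -0.28 in liver, and Icam1 had 0.29 in cells and -0.91 in liver. By edgeR the 3 genes were called in the cells, beside 57.7% of all tested genes, and none of them in the liver, beside 0.0859%. The difference between the effects was not tested, since dose, time, vehicle and lipid load differed.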

How the results depend on the processing

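In the cells 6 or 7 members were called under all 14 alternatives, 7 without control replicate 1 (Adam10 added) or control replicate 3 (Mmp13 added), and the fold changes of the 7 tested members kept their sign. Mmp9 and Mmp12, and Mmp13 without control replicate 3, passed the filter only through the esculetin libraries, so nothing is read from their calls. Without control replicate 3 the fitted change of Mmp9 moved up. Its remaining control libraries had 0 and 1 counts, under the floor, so no value is given. Of the 108 other genes, 28 were called, 18 by the study's criterion and 20 to 27 when a library was left out. Over all cell genes 7667 of 13277 were called, and 5041 of 13277 by the study's criterion. When a library was left out, 6518 to 7910 of 13678 to 13793 were called, and without the filter 8061 of 25562. Adamts10, Adamts6, Bsg and Tspan14 lost their call when some library was left out. In the liver 0 members were called, and Mmp14 alone without the filter (1 of 10 tested) and by the study's criterion (1 of 6). Of the other liver genes 0 were called, and 0 when any library was left out. Without the filter 2 of 99 were called (Icam1 and Notch2), beside 339 of 22343 over all genes. With DESeq2 and with the replicate block 1 of 70 was called (Icam1), beside 98 and 123 of 12813. By the study's criterion 8 of 70 were called, beside 499 of 12813. The cause was not tested.

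Fitted changes in the liver that passed no test turned above 0 in some fits. With libraries left out in turn, Adam10 ran from -0.46 to 0.018 (above 0 without control replicate 1), Timp2 from -0.32 to 0.26 (above 0 without control replicate 2 or 3 or esculetin replicate 1), Plau from -0.28 to 0.23 (control replicate 2, esculetin replicate 1) and Plaur from -0.30 to 0.19 (control replicate 2, esculetin replicate 2). Timp2 was also at 0.000144 with RLE, 0.0019 with DESeq2, 0.091 with limma-voom and 0.090 with the replicate block.

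Whether replicate numbers pair the samples could not be settled with 3 libraries per group. Same-numbered libraries correlated in their deviations at -0.01 to 0.14 in liver and -0.03 to 0.16 in cells. Differently numbered ones did so at -0.15 to 0.09 in liver and -0.17 to 0.11 in cells. With the block 6 members and 28 other genes were called in the cells and 0 members in the liver, and over all genes 7982 in cells and 123 in liver, beside 7667 and 11 without it. Over all liver genes the count was 339 of 22343 tested without the filter. It was 98 of 12813 with DESeq2, 499 of 12813 by the study's criterion and 0 of 12813 with library size only. When a library was left out it was 0 to 31 of 13012 to 13224. The low counts of Adam8, Mmp9, Mmp12, Mmp13 and Plaur in liver limit what could be detected.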
